A study of Saccharomyces cerevisiae with 10 samples.

Results

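Transcript levels of the yeast Saccharomyces cerevisiae after 18 h of feeding with spruce hydrolysate were compared with those at the start of the feed. The comparison took the 2 arrays labelled hydrolysate at 18 h and the 2 control arrays from the start of the fed-batch (0 h), 4 of the 10 arrays of the series. Every S. cerevisiae probe set with a single open reading frame entered, and where a gene had several, the brightest over all arrays was kept, which gave 5654 genes, all those of the series.

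All cultures were of strain TMB3500, grown aerobically at 30 °C and pH 5 in a batch with 20 g/L glucose and then fed. The start arrays were sampled when the feed began. The hydrolysate cultures then received spruce hydrolysate that had not been detoxified, adjusted to pH 4.7, at 0.04 L/h rising to 0.1 L/h over 16 h, until 1 L had been added to 0.7 L. What was supplied between 16 h and the 18 h sample is not given in the labels, and neither is the sugar left when the feed began. The other groups used below are hydrolysate at 9 h and a mixture of glucose, mannose and xylose, fed in the same way, at 9 h and 18 h. Sugar at 9 h was not a side of any test, but its arrays enter the shared estimate of spread and the figures. Each group is 2 biological replicates of this strain, so p-values rest on the spread between pairs of arrays.

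Wood hydrolysate carries hexoses and pentoses together with furan aldehydes, weak organic acids and phenolic compounds, which slow yeast growth. Yeast is known to reduce furans and aldehydes with NADPH- and NADH-dependent enzymes, to pump out weak acid anions and drugs, and to repair oxidised protein and membrane. At the end of an aerobic glucose batch, yeast typically turns to respiration of ethanol and acetate, with peroxisomal and gluconeogenic genes switched on and ribosome production low, whereas a steady sugar feed restores ribosome production.

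Values are log2 intensities, so that a difference of 1 is a factor of 2, and they are relative to the whole array because the authors' normalization equalised the arrays. The start arrays correlated at r = 0.98 across genes, the hydrolysate 18 h arrays at r = 0.99 and the hydrolysate 9 h arrays at r = 0.97. The median difference over all genes was 0.10, against which the medians of gene groups below are to be read. Spike-in probe sets, which read control sequences added to the hybridization, averaged 11.49 and 11.87 on the start arrays and 10.77 and 10.69 on the hydrolysate 18 h arrays. Scaling to them, which assumes equal additions, moves the median to 1.05 and turns differences below 0 that are smaller than this shift into positive ones. Ribosomal RNA probe sets read 8.17 and 8.08 at the start against 7.21 and 7.09 at 18 h. The excess of 3′ over 5′ probe sets of 8 control genes averaged 0.78 and 0.88 at the start and 1.27 and 1.20 at 18 h. Differences from the start grew with gene length, with medians of -0.08, 0.01, 0.16 and 0.35 from the shortest to the longest of 4 equal classes of genes. The part of RNA quality and of hybridization in the results was not tested, beyond the counts given below for other scalings.

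At 18 h, 1876 genes were higher and 1256 lower than at the start by limma at an adjusted p below 0.05, together 55.4% of the genes tested. The rises were 33.2% and the falls 22.2% of all genes, and the counts of gene groups below are to be read against these shares. At least 2-fold changes numbered 881 rises and 573 falls. With spike-in scaling the calls would be 4032 higher and 206 lower, and with the trend on gene length removed 1574 higher and 1555 lower. With quantile normalization again they would be 1519 and 1454, and with median centring 1626 and 1489. The excess of rises over falls thus depends on the scaling. Leaving out 1 of the 10 arrays gave between 2388 and 3334 calls.

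**Figure D1:**
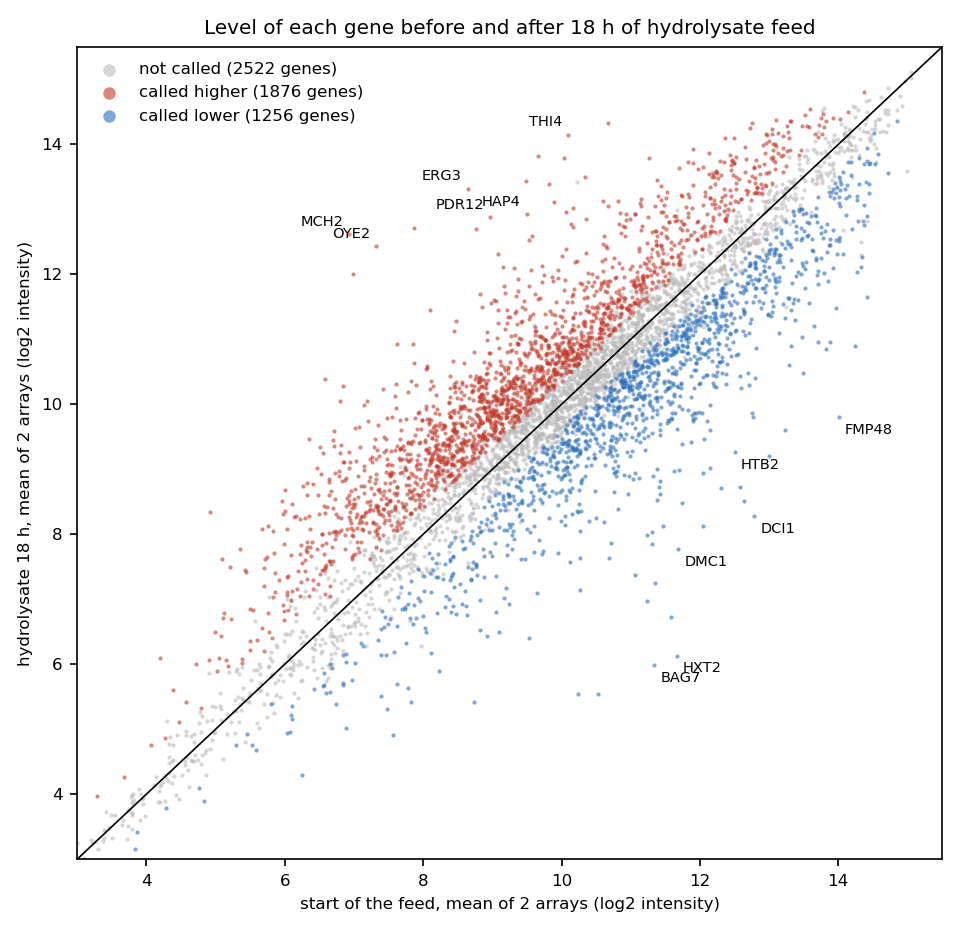
Mean log2 intensity of 5654 genes on the 2 start arrays (horizontal axis) and on the 2 hydrolysate 18 h arrays (vertical axis); points are genes, coloured by the limma call, and the line marks equal levels. The 1876 higher and 1256 lower genes lie on both sides of the line, with MCH2, OYE2 and PTR2 farthest above it and HXT2 and BAG7 farthest below.

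The largest rises included genes for transport across the plasma membrane, for reduction of aldehydes and enones, for sterols and unsaturated fatty acids, and for thiamine and purines. MCH2 (chromosome XI, 6107 to 7528), which codes for a relative of the mammalian monocarboxylate carriers, read 6.80 and 7.06 at the start and 13.14 and 12.09 at 18 h. That difference of 5.68 ± 0.45 (SE, n = 2 a group, adjusted p = 5e-05), 51.4-fold, was the largest rise of the comparison. OYE2 (chromosome VIII, 462502 to 463704) and OYE3 (chromosome XVI, 226169 to 227371), the old yellow enzymes, are NADPH-dependent reductases. OYE2 went from 7.57 and 7.08 to 12.88 and 11.99, a rise of 5.11 ± 0.34 (adjusted p = 2.75e-05). OYE3 went from 8.15 and 7.59 to 12.87 and 12.57, a rise of 4.85 ± 0.25 (adjusted p = 1.19e-05). The peptide carrier gene PTR2 (chromosome XI, 615730 to 617535) read 6.29 and 7.67 and then 12.22 and 11.79 (5.03, adjusted p = 5e-05). In each of these 4 genes both arrays at 18 h read at least 11.79, and no start array read above 8.15.

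ERG3 (chromosome XII, 253861 to 254958), coding for the sterol C-5 desaturase, rose from 8.96 and 8.33 to 13.67 and 12.97 (4.68 ± 0.27, adjusted p = 2.22e-05). The remaining 10 of the 15 largest rises were between 3.44 and 4.17. They were SHH3, a homologue of the succinate dehydrogenase subunit gene SDH3, and the thiamine genes THI4 and THI73, with rises of 4.05 and 3.96. FLR1 and PDR12, which code for exporters of drugs and of weak acid anions, rose by 3.94 and 3.91. ADE4, the gene for the first committed step of purine synthesis, rose by 3.80, the small heat shock gene HSP26 by 3.75, and the fatty acid desaturase gene OLE1 by 3.67. ERG5, for the sterol C-22 desaturase, rose by 3.57 and the regulator gene RPI1 by 3.44. OLE1 (10.58 and 10.75, then 14.31 and 14.36) and THI4 (10.05 and 10.16, then 14.11 and 14.19) had replicates close together at both times; arrays that do not overlap were a condition for choosing all 15.

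The largest falls included genes for high-affinity uptake, peroxisomes and meiosis. HXT2 (chromosome XIII, 288079 to 289704), a high-affinity glucose carrier gene, read 11.78 and 11.55 at the start and 6.33 and 5.93 at 18 h. Its difference of -5.53 ± 0.37 (adjusted p = 2.75e-05), 46.2-fold lower, was the largest fall of the comparison. BAG7 (chromosome XV, 578564 to 579793) went from 10.97 and 11.70 to 6.16 and 5.81 (-5.35, adjusted p = 2.76e-05). PEX9 (chromosome XIII, 310208 to 311752), for a peroxisomal import receptor, went from 10.17 and 10.90 to 5.63 and 5.44 (32.0-fold lower, adjusted p = 1.37e-05). At 18 h these genes were dim, though above the background of 4.67 to 4.90, the level that 95% of the probe sets for fission yeast on the same arrays did not pass.

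The other 12 of the 15 largest falls were between -4.85 and -3.69. SLZ1, for a subunit of the meiotic RNA methyltransferase, changed by -4.85, and DMC1, for the meiotic recombinase, by -3.91 (11.59 and 11.77, then 7.78 and 7.76). The kinase gene RCK1 changed by -4.69, DCI1, for a peroxisomal isomerase, by -4.51, and the kinetochore gene NKP1 by -4.13. Carriers were DIP5, for acidic amino acids (-4.10), and SUL1, for sulfate (-3.69); SPL2, a regulator of phosphate uptake, changed by -3.90. COX23, for a mitochondrial protein of cytochrome oxidase assembly, changed by -3.84, ALT2, a paralogue of the alanine transaminase gene, by -3.79, SRL4 by -4.25 and FMP48 by -4.21. None of the 30 genes with the largest changes lost its call or moved by over 1.5 times when any 1 of the 10 arrays was left out. They were chosen on these same arrays as called, not overlapping and largest in change, so this outcome largely follows from the choice.

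**Figure D2:**
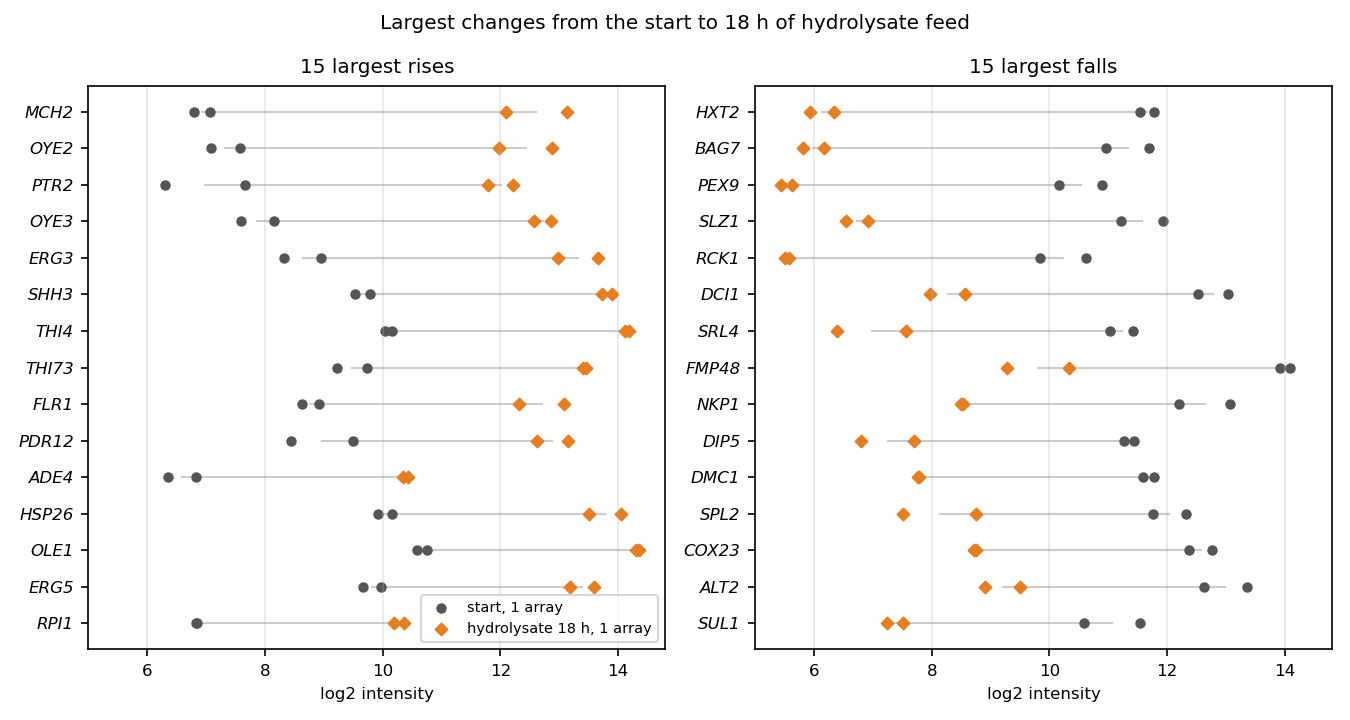
Log2 intensity (horizontal axis) of the 15 genes with the largest rises (left) and the 15 with the largest falls (right), with 1 point for each of the 2 start arrays (circles) and the 2 hydrolysate 18 h arrays (diamonds) and a line joining the group means. The genes were chosen among those whose arrays do not overlap between groups; PTR2 and PDR12 show the widest gap between start arrays among the rises.

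Genes for the cytosolic translation machinery rose together. Of 130 measured ribosomal protein genes 116 rose and none fell, with a median difference of 0.93. Of 117 ribosome biogenesis genes 103 rose and 1 fell, with a median of 1.36. RPL31B, a gene of the large subunit, read 10.11 and 10.02 at the start and 12.90 and 13.02 at 18 h (2.90 ± 0.14, adjusted p = 1.1e-05). RPS17B, RPS24B and RPL16A rose by 2.03, 1.94 and 1.92. The lowest difference in the list was -0.32, and RPL3 differed by 0.09 (adjusted p = 0.618).

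Among the biogenesis genes, KRR1, needed for the small subunit, read 8.04 and 7.70 and then 10.79 and 10.46 (2.76, adjusted p = 8.75e-05). KRE33, UTP14 and BFR2 rose by 2.68, 2.64 and 2.53. MDN1, for a large remodelling ATPase of the large subunit, fell (-1.29, adjusted p = 0.00253), and NOP1, for the fibrillarin methyltransferase, differed by only 0.26 (adjusted p = 0.208). In RNA polymerases I and III 19 of 27 genes rose and 1 fell, led by RPC25 (2.55), RPC82 (2.48) and RPC34 (2.07). Translation factor and tRNA synthetase genes had 30 rises and 3 falls of 55, with a median of 0.49. FRS2, for a phenylalanyl-tRNA synthetase subunit, rose by 1.94 and EFB1, for an elongation factor, by 1.90. Spike-in scaling adds the same amount to every difference from the start, so rises had to remain rises under it. With that scaling 130 of 130 ribosomal protein and 116 of 117 biogenesis genes were called higher. With quantile normalization again the ribosomal protein genes had 117 rises and 0 falls, with a median of 0.96. The biogenesis genes then had 91 rises and 4 falls, with a median of 1.09.

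Genes of the mitochondrial ribosome fell. Of 71 measured genes 60 fell and 1 rose, with a median of -1.16. MRPL40 went from 11.64 and 11.21 to 8.87 and 8.76 (-2.61 ± 0.22, adjusted p = 5.74e-05). MRPL13, MRPL17 and MRPL31 changed by -2.59, -2.36 and -2.10. With spike-in scaling 14 of the 71 were lower and 2 higher, and the median was -0.20. With the gene length trend removed 63 were lower. The genes of the respiratory chain and ATP synthase had 4 rises and no falls of 42 and a median of 0.05. With spike-in scaling 40 of these 42 were higher.

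HAP4, the regulatory subunit of the activator of respiratory genes, rose from 9.27 and 9.72 to 12.73 and 13.13 (3.43 ± 0.25, adjusted p = 3.44e-05), 10.8-fold. Of the other risers of that list, COX5A (0.69) and ATP4 (0.62) changed less. CYC1, for cytochrome c, differed by 0.01 (adjusted p = 0.969) and its hypoxic copy CYC7 by -0.13 (adjusted p = 0.598). In the tricarboxylic acid cycle 6 of 20 genes rose and 2 fell, against 4 and 5 with the trend on gene length removed and 17 and 0 with spike-in scaling. IDH1, for a subunit of isocitrate dehydrogenase, rose by 1.32, IDP1 by 1.24 and the malate dehydrogenase gene MDH1 by 1.23. LSC1, for succinyl-CoA ligase, fell from 14.04 and 13.99 to 12.56 and 12.55 (-1.46). Without replicate 2 of hydrolysate 18 h the rises in this list numbered 3.

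Peroxisomal fatty acid oxidation showed the lowest median of the 42 lists, -2.09. There 19 of 24 measured genes fell and 2 rose, and 15 were lower with spike-in scaling. FAA2, for the peroxisomal acyl-CoA synthetase, read 13.11 and 13.34 at the start and 10.06 and 9.13 at 18 h (-3.63 ± 0.49, adjusted p = 0.000462). POX1, for acyl-CoA oxidase, read 14.13 and 14.36 and then 11.72 and 10.07 (-3.35 ± 0.78, adjusted p = 0.00669), with arrays at 18 h that stood far apart. DCI1, given above, and IDP3, which fell, for the peroxisomal isocitrate dehydrogenase (-2.97), belong to the same list. The members that rose were PEX21 (1.69) and OAF1 (0.78), the latter coding for a factor that activates oleate-responsive genes.

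In the list of the glyoxylate cycle and gluconeogenesis 5 of 28 genes rose and 5 fell, with a median of -0.05; with spike-in scaling 13 were higher and 1 lower. PCK1, for phosphoenolpyruvate carboxykinase, read 13.08 and 13.02 and then 14.28 and 14.18 (1.18, adjusted p = 0.00199), and FBP1, for fructose-1,6-bisphosphatase, 13.15 and 12.96 and then 13.84 and 13.78 (0.76). ICL1, for isocitrate lyase, differed by 0.75 (adjusted p = 0.155) from a start level of 13.78 and 13.75. Falls were of the acetaldehyde dehydrogenase gene ALD4 (-1.16) and the glycerol kinase gene GUT1 (-1.09). The hydrolysate 9 h arrays enter the shared estimate of spread, and without replicate 1 of them the counts were 7 rises and 11 falls. Without replicate 2 of hydrolysate 18 h they were 3 and 5.

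Genes of glycolysis and fermentation were more often higher than lower, with 17 rises and 6 falls of 29 and a median of 0.49. CDC19, for pyruvate kinase, rose from 11.42 and 12.22 to 13.76 and 13.70 (1.91, adjusted p = 0.000323) and PDC1, for pyruvate decarboxylase, from 12.25 and 13.06 to 14.06 and 13.87 (1.31). HXK1, for a hexokinase that is low when glucose is plentiful, fell from 13.39 and 13.56 to 10.69 and 11.37 (-2.44, adjusted p = 7.31e-05). EMI2, of the same list, fell as well (-1.59). PDC6 was called at 2.17 (adjusted p = 0.0428), but lost the call without any 1 of the 4 arrays compared (adjusted p 0.0907 to 0.154) or of the sugar arrays. ADH1 differed by -0.33 (adjusted p = 0.0869) and ADH2 by -0.42 (adjusted p = 0.691). The rises numbered 11 without replicate 1 of the start and 10 without replicate 1 of hydrolysate 18 h.

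Of 25 genes for hexose carriers and sensing 2 rose and 5 fell, against 14 and 2 with spike-in scaling and 1 and 9 with quantile normalization again. Without replicate 1 of the start 0 rose and 8 fell. HXT2 is described above. HXT1, a low-affinity carrier gene, fell from 8.21 and 9.99 to 6.53 and 6.46 (-2.61, adjusted p = 0.00197); without replicate 2 of the start, which read higher than its pair, the difference was -1.72. HXT5 differed by 0.28 (adjusted p = 0.588) and HXT7, which shares its probe set with another gene, by 0.14 (adjusted p = 0.569). The glycerol carrier gene STL1 fell from 13.66 and 13.59 to 12.38 and 12.36 (-1.26). In the galactose and maltose list 4 of 18 rose and 8 fell, against 8 and 1 with spike-in scaling. MAL32, for maltase, with a probe set shared with a copy, rose by 1.64, whereas the isomaltase gene IMA5 went from 11.86 and 11.64 to 8.75 and 8.20 (-3.27).

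GAL1 and GAL10 stood close to their start levels at 18 h, with differences of -0.19 (adjusted p = 0.496) and -0.37 (adjusted p = 0.224). GAL7 was called at 0.80 (adjusted p = 0.021), but not without replicate 1 of either group compared (0.55, adjusted p = 0.124, and 0.63, adjusted p = 0.125). In the pentose phosphate and xylose list 10 of 20 fell and 1 rose, with a median of -0.69; with spike-in scaling 2 were lower and 7 higher. SOL3, for 6-phosphogluconolactonase, fell by 2.14, XKS1, for xylulokinase, went from 12.06 and 12.04 to 10.21 and 10.62 (-1.64, adjusted p = 0.000195), and TAL1, for transaldolase, from 13.38 and 13.58 to 12.03 and 12.33 (-1.30). ZWF1, for the dehydrogenase that opens the pathway, changed by -0.92, or -0.58 without replicate 2 of the start. The riser was RKI1, for ribose-5-phosphate isomerase (11.84 and 11.19, then 13.14 and 13.20, 1.66). TKL1, for transketolase, differed by 0.13 (adjusted p = 0.473) and XYL2, for xylitol dehydrogenase, by -0.69 (adjusted p = 0.115).

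Reductases of furans and aldehydes moved in both directions. Of 28 measured genes 6 rose and 12 fell, with a median of -0.23, and with spike-in scaling 16 were higher and 0 lower. Besides OYE2 and OYE3 the named risers were YLR460C (1.48) and AAD6 (1.43), and AAD6 lost its call without either start array (adjusted p = 0.0538 and 0.0729) or replicate 1 of hydrolysate 18 h (1.07, adjusted p = 0.118). ADH6, for an NADPH-dependent reductase of furfural derivatives, read 11.14 and 10.58 at the start and 11.36 and 10.78 at 18 h and differed by 0.21 (adjusted p = 0.489), with overlapping arrays. Its relative ADH7 fell by 1.24, and GRE3, for an aldose reductase, and ARA1, for an arabinose dehydrogenase, changed by -1.47 and -1.50.

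GRE2, for a methylglyoxal reductase, was called at -0.43 (adjusted p = 0.0493), but lost the call without any 1 of the 4 arrays compared (adjusted p 0.0867 to 0.169) or of the sugar arrays. ARI1, for an aldehyde reductase, was called at -0.88 and lost the call without replicate 1 of hydrolysate 18 h (-0.68, adjusted p = 0.0512). PAD1 and FDC1, both needed for the decarboxylation of phenylacrylic acids, differed by -1.04 and -0.70. The call of FDC1 was lost without replicate 1 of hydrolysate 18 h (-0.43) and without replicate 1 of the start (-0.53). The falls in the whole list numbered 7 without replicate 1 of hydrolysate 18 h.

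Genes of drug export and of the response to weak acids had 24 rises and 5 falls of 41 and a median of 0.71. With the trend on gene length removed these were 17 and 7, with a median of 0.39. The list also rose with the sugar feed. Its median change from the start was 0.74 and 0.82 on the sugar 18 h arrays and 0.64 and 0.62 on the hydrolysate 18 h arrays. Between the feeds at 18 h, 12 of the 41 were higher and 11 lower in hydrolysate, with a median of -0.31. PDR12 read 8.44 and 9.49 at the start and 12.62 and 13.15 at 18 h, and FLR1 8.62 and 8.91 and then 13.09 and 12.31. ATR1, for another exporter, rose from 8.65 and 9.40 to 11.46 and 11.76 (2.59, adjusted p = 0.000103). PDR5, for the main broad-range drug exporter, was higher by 0.74 and SNQ2, of the same family, by 0.68. The call of PDR5 was lost without replicate 2 of hydrolysate 18 h (0.56, adjusted p = 0.0629). That of SNQ2 was lost without replicate 1 of hydrolysate 18 h (0.56, adjusted p = 0.112) or of the start (0.47, adjusted p = 0.11). PDR15 and the cell wall gene SPI1 changed by -1.74 and -1.68. Without replicate 2 of hydrolysate 18 h the falls in this list numbered 3. The regulator genes HAA1 and YAP1 differed by 0.25 (adjusted p = 0.422) and 0.11 (adjusted p = 0.527).

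In the acetate list 4 of 11 genes rose and 1 fell, while the median was below 0 (-0.59, or 0.36 with spike-in scaling). There were 5 falls without replicate 1 of hydrolysate 9 h. ACS2, for the acetyl-CoA synthetase of glucose-grown cells, rose from 11.21 and 11.31 to 13.81 and 13.76 (2.53 ± 0.18, adjusted p = 2.82e-05), and ACH1, for a CoA transferase that acts on acetate, from 12.96 and 12.95 to 14.13 and 14.21 (1.21). ACS1, the isozyme gene of cells without glucose, was at 14.48 and 14.60 and then 14.07 and 13.82 (-0.59, adjusted p = 0.365). ALD6, for cytosolic acetaldehyde dehydrogenase, was called at 1.14 (12.01 and 11.75, then 13.60 and 12.44), and was at 0.56 (adjusted p = 0.117) without replicate 1 of hydrolysate 18 h, 1.72 without replicate 2 and 1.01 (adjusted p = 0.0932) without replicate 2 of the start.

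Glutathione and thioredoxin genes had 10 rises and 3 falls of 43, against 32 and 0 with spike-in scaling. The largest rise was of GTT2, for a glutathione transferase (8.03 and 7.68, then 11.13 and 10.74, 3.08, adjusted p = 0.000137). GSH1, for the first enzyme of glutathione synthesis, rose by 1.97 with tight arrays (10.28 and 10.18, then 12.24 and 12.17). Heat shock and folding genes had 15 rises and 5 falls of 32, with 3 falls without replicate 1 of hydrolysate 18 h. With the trend on gene length removed they had 11 and 8, and with spike-in scaling 25 and 0. HSP26 read 10.16 and 9.91 and then 13.51 and 14.06, and YDJ1, for a cytosolic co-chaperone, 9.21 and 9.64 and then 11.58 and 11.41 (2.07). HSP104 differed by 0.33 (adjusted p = 0.146), HSP30 by 1.40 (adjusted p = 0.147) and HSP12, bright on every array, by 0.06 (adjusted p = 0.725). Without replicate 1 of hydrolysate 9 h the falls of the glutathione and thioredoxin list numbered 10.

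The list of general stress and quiescence genes had 4 rises and 13 falls of 41, against 19 and 2 with spike-in scaling. There were 7 falls without replicate 2 of the start and 21 without replicate 1 of hydrolysate 9 h. MOH1, a gene of stationary phase, rose by 1.24, and XBP1, for a repressor of stress and starvation, went from 11.77 and 12.52 to 9.88 and 10.10 (-2.16, adjusted p = 0.00198). Genes for the reserves trehalose and glycogen mostly fell, 16 of 24 with 1 rise and a median of -0.90; with spike-in scaling 4 were lower and 6 higher. GSY1, for glycogen synthase, read 11.82 and 11.66 and then 9.37 and 9.40 (-2.35, adjusted p = 8.75e-05), and TPS2, for trehalose phosphatase, 14.30 and 14.39 and then 12.27 and 12.26 (-2.08). GSY2, TPS1 and TSL1 changed by -1.44, -1.49 and -0.91, and GIP2, for a phosphatase subunit of glycogen metabolism, by -2.66. The rise was of GAC1 (0.98), lost without replicate 2 of hydrolysate 18 h (adjusted p = 0.0517).

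In the proteasome list 6 of 42 genes rose and 6 fell, against 34 and 0 with spike-in scaling. There were 1 to 5 rises when 1 of the 4 arrays compared was left out. Its activator gene RPN4 was called at 0.51, but not without replicate 1 of the start (0.45, adjusted p = 0.0625) or of hydrolysate 18 h (0.45, adjusted p = 0.0889). Among 36 autophagy genes 9 rose and 9 fell, shares near those of all genes, against 25 and 0 with spike-in scaling. Without replicate 2 of hydrolysate 18 h these were 6 and 4. ATG1, for the kinase that starts autophagy, rose from 9.68 and 9.64 to 11.47 and 11.76 (1.95, adjusted p = 9.05e-05) and ATG29 fell by 1.17. Osmotic response genes had 7 rises, among them PBS2, for a kinase of the osmosensing cascade (1.29), and 9 falls of 28, against 18 and 1 with spike-in scaling. Without replicate 1 of hydrolysate 18 h 4 rose and 7 fell.

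**Figure D3:**
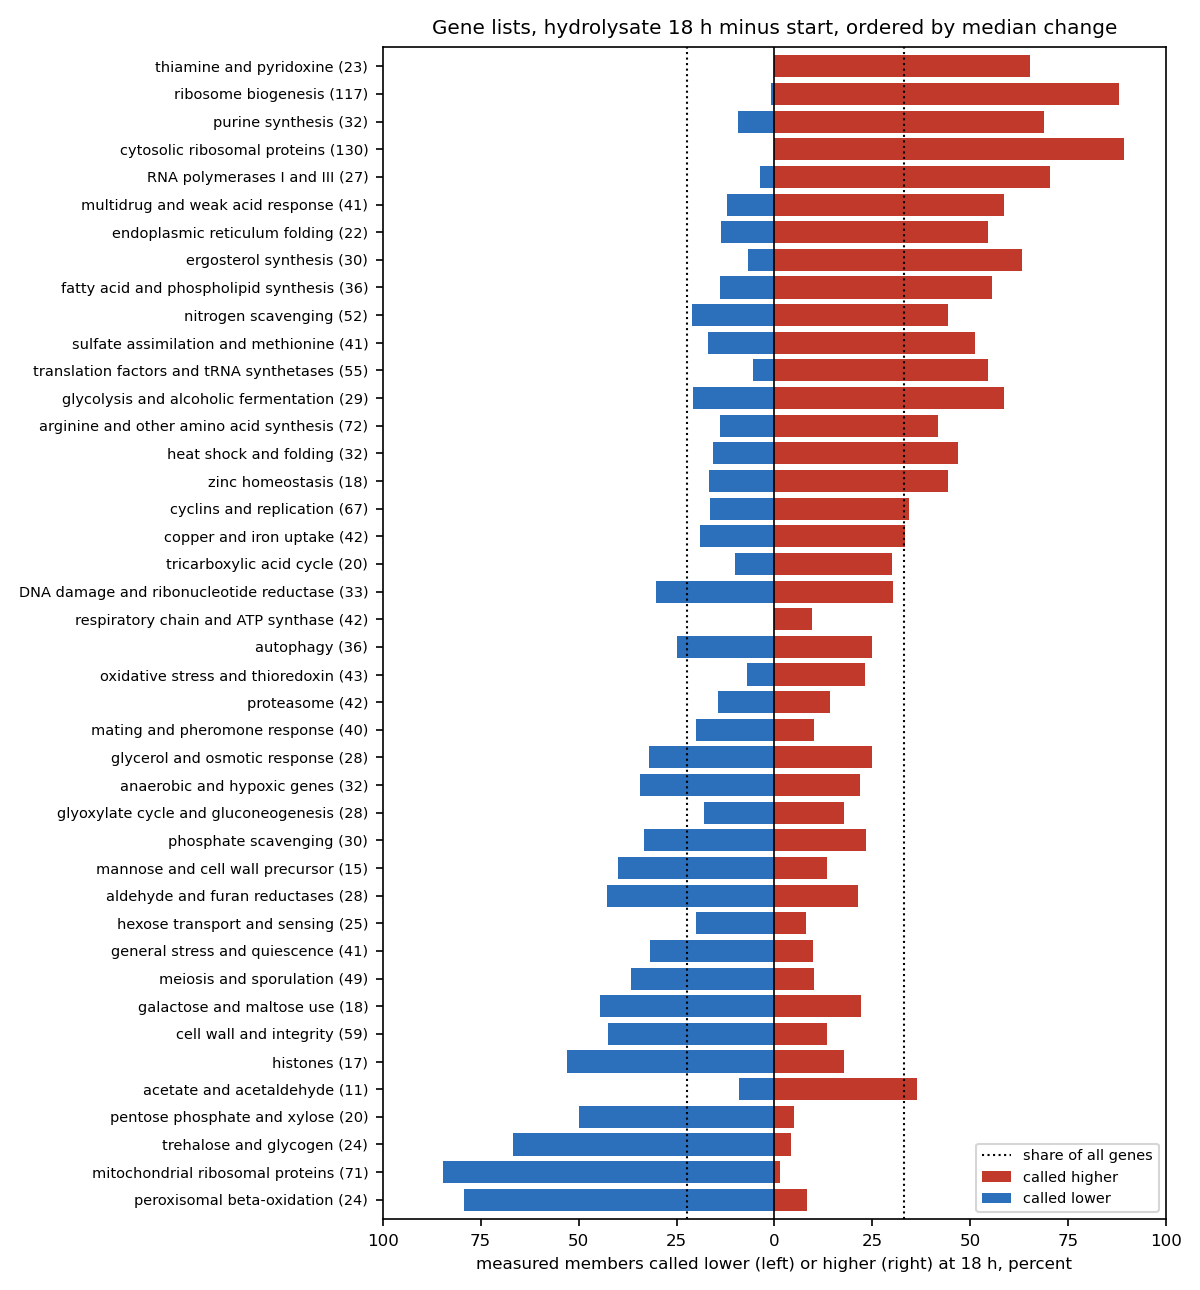
Share of the measured members of each gene list (number in brackets) called higher (right) or lower (left) at 18 h of hydrolysate than at the start, in percent, with lists ordered by median change and dotted lines at the shares of all genes, 33.2% higher and 22.2% lower. Ribosomal lists, purine and thiamine synthesis lie to the right with few or no falls, and mitochondrial ribosomal and peroxisomal lists to the left.

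Lipid and endoplasmic reticulum genes showed more rises than falls. Ergosterol synthesis had 19 rises and 2 falls of 30 and a median of 0.67. ERG25 went from 10.53 and 10.15 to 13.70 and 13.29 (3.16) and ERG11, for the lanosterol demethylase that azole drugs inhibit, from 11.06 and 11.24 to 13.40 and 12.93 (2.01, adjusted p = 0.000134). ERG6, for the sterol C-24 methyltransferase, fell (12.17 and 12.18, then 11.29 and 10.42, -1.32, adjusted p = 0.00699). Fatty acid and phospholipid genes had 20 rises and 5 falls of 36, with EKI1, for ethanolamine kinase, at 2.37 and HNM1, for the choline carrier, at 1.97, while GPT2 and FAA1 changed by -1.65 and -1.24. In endoplasmic reticulum folding 12 of 22 rose and 3 fell, against 8 and 5 with the trend on gene length removed. ERO1, for the oxidase that forms disulfide bonds, read 9.48 and 9.25 and then 11.83 and 11.67 (2.38 ± 0.15, adjusted p = 2.32e-05), and SCJ1, for a luminal co-chaperone, rose by 1.61.

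Genes that respond to low oxygen and haem had 7 rises and 11 falls of 32, against 19 and 2 with spike-in scaling. ROX1, for the repressor of hypoxic genes, rose from 9.08 and 9.35 to 11.47 and 11.05 (2.04, adjusted p = 0.000136). ANB1, for the hypoxic form of translation factor eIF5A, fell by 1.25. SUT1, for a factor of sterol uptake, fell from 9.44 and 9.84 to 7.09 and 7.11 (-2.54).

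Vitamin and nucleotide synthesis rose with few or no falls. In the thiamine and pyridoxine list 15 of 23 measured genes rose and none fell, and its median of 1.60 was the highest of the 42 lists. THI7, for the thiamine carrier, went from 9.32 and 9.81 to 12.64 and 12.54 (3.02, adjusted p = 2.27e-05), and THI73 from 9.74 and 9.22 to 13.46 and 13.41. Purine synthesis had 22 rises and 3 falls of 32 with a median of 1.03. ADE4 read 6.83 and 6.35 and then 10.35 and 10.43, and ADE17, further down the pathway, 11.33 and 10.94 and then 13.29 and 12.91 (1.97). FCY2, for a purine and cytosine carrier, and HPT1, for a salvage transferase, rose by 2.54 and 2.49, and the regulator gene PHO2 fell by 1.24.

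Amino acid synthesis genes had 30 rises and 10 falls of 72. ARG1, for argininosuccinate synthetase, rose from 9.57 and 9.49 to 12.23 and 12.84 (3.01 ± 0.22, adjusted p = 3.29e-05), GLN1, for glutamine synthetase, by 2.86, ASN1 by 2.65 and GLY1 by 2.56. The activator gene GCN4 differed by -0.23 (adjusted p = 0.159). LEU1 and LYS5 changed by -1.12 and -1.08. The falls numbered 6 without replicate 2 of the start.

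The sulfur list had 21 rises and 7 falls of 41. The counts were 14 and 3 without replicate 1 of the start and 19 and 2 without replicate 1 of hydrolysate 18 h. SAM2, for S-adenosylmethionine synthetase, rose from 9.02 and 8.91 to 10.63 and 10.96 (1.83, adjusted p = 5e-05). Of the sulfate carrier genes SUL1 fell from 11.55 and 10.59 to 7.51 and 7.25, whereas SUL2 went from 7.48 and 8.01 to 8.84 and 10.70 (2.02). SUL2 lost its call without replicate 1 of the start (1.76, adjusted p = 0.0591) and was at 1.10 without replicate 2 of hydrolysate 18 h. MET3, for ATP sulfurylase, differed by 0.16 (adjusted p = 0.785) with overlapping arrays. MUP1, for the methionine carrier, was called at 1.10, lost without replicate 1 of either group compared (adjusted p = 0.112 and 0.104).

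Nitrogen genes had 23 rises and 11 falls of 52, the falls near the share of all genes, against 39 and 6 with spike-in scaling. There were 7 falls without replicate 2 of hydrolysate 18 h. MEP3, for an ammonium carrier, rose from 7.26 and 7.58 to 10.26 and 10.21 (2.81, adjusted p = 7.33e-05). The amino acid carrier genes DIP5 (11.27 and 11.44, then 6.79 and 7.71) and GNP1 (11.86 and 12.75, then 8.73 and 8.69, -3.59) fell. GAP1, for the general amino acid carrier, was called at 1.16, but was at 0.42 (adjusted p = 0.319) without replicate 1 and 1.91 without replicate 2 of hydrolysate 18 h, and lost the call without any 1 start or sugar array. MEP2, for another ammonium carrier, read 12.98 and 11.02 at 18 h and was called at 1.56, with 0.58 without replicate 1 and 2.54 without replicate 2. Its call was lost without replicate 1 (adjusted p = 0.0786) or replicate 2 (adjusted p = 0.0867) of the start. The repressor gene DAL80, called at 3.30, read 12.30 and 9.55 at 18 h and was at 1.93 without replicate 1.

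In the copper and iron list 14 of 42 rose and 8 fell, against 30 and 4 with spike-in scaling. FET3 and FTR1 code for the partners of high-affinity iron uptake. FET3 rose from 8.67 and 8.28 to 10.87 and 11.69 (2.81, adjusted p = 0.000137) and FTR1 from 8.70 and 9.01 to 11.37 and 11.61 (2.64, adjusted p = 2.82e-05). ARN1, for a siderophore carrier, and CCC2, for the pump that loads copper onto Fet3, rose by 2.51 and 1.86. CTR1, for the high-affinity copper carrier, fell from 10.53 and 10.00 to 8.21 and 7.90 (-2.21 ± 0.32, adjusted p = 0.000604), and FRE7, for a copper-regulated reductase, changed by -1.93. CUP1-1, for metallothionein, with a probe set shared with its copy, was called at 0.65, lost without replicate 2 of either group compared (adjusted p = 0.0729 and 0.104).

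In the zinc list 8 of 18 rose and 3 fell, and the zinc carrier gene ZRT1 differed by 0.55 (adjusted p = 0.0908). IZH1 and IZH2, for membrane proteins of zinc homeostasis, rose by 2.29 and 1.99. Phosphate genes had 7 rises and 10 falls of 30, against 18 and 3 with spike-in scaling. PHO89, for the sodium-coupled phosphate carrier, fell from 10.16 and 10.36 to 7.33 and 6.95 (-3.12 ± 0.19, adjusted p = 2.27e-05), and SPL2 from 12.32 and 11.76 to 8.75 and 7.52. PHO3, for a thiamine-repressed phosphatase, rose from 7.03 and 6.58 to 9.20 and 9.56 (2.58). PHO84 and PHO5, the main phosphate carrier and secreted phosphatase genes, differed by -0.84 (adjusted p = 0.319) and -0.38 (adjusted p = 0.073).

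Cell wall and histone genes showed more falls than rises, except with spike-in scaling. Cell wall genes had 8 rises and 25 falls of 59 with a median of -0.46; with spike-in scaling 10 were lower and 26 higher. The wall mannoprotein genes CWP1 (11.64 and 12.64, then 9.26 and 8.78, -3.12) and PIR1 (12.26 and 13.24, then 9.67 and 10.05, -2.89) fell, while CHS3, for chitin synthase, rose by 1.60. Of 15 mannose and cell wall precursor genes 6 fell, with PSA1, for GDP-mannose pyrophosphorylase, at -1.58 and DPM1, for dolichol phosphate mannose synthase, at -1.86, and 2 rose, against 2 and 9 with spike-in scaling. Histone genes and their regulators had 9 falls and 3 rises of 17, against 1 and 7 with spike-in scaling. The rises numbered 1 without replicate 1 of the start or without either hydrolysate 18 h array, and 1 with quantile normalization again. HTB2, for histone H2B, fell from 12.48 and 12.52 to 9.51 and 9.01 (-3.24, adjusted p = 7.31e-05), and HHT2, for histone H3, changed by -1.45. A riser was HIR1 (1.09), for a repressor of histone genes.

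Cyclin and replication genes had 23 rises and 11 falls of 67, but 21 and 20 with quantile normalization again, 19 and 16 with the trend on gene length removed, and 49 and 2 with spike-in scaling. There were 7 falls without replicate 2 of hydrolysate 18 h. CLB1, for a mitotic cyclin, rose from 7.87 and 7.36 to 10.20 and 10.42 (2.70, adjusted p = 6.47e-05), and MCM6, for a subunit of the replicative helicase, by 1.71. The tubulin genes TUB1 and TUB2 changed by -2.14 and -1.56, and ACT1, for actin, by -0.65. CLN3 differed by -0.09 (adjusted p = 0.847) and WHI5 by 1.25 (adjusted p = 0.194). RAD53, for the DNA damage checkpoint kinase, rose from 5.07 and 4.76, of which the second was below the background of 4.90 on its array, to 8.65 and 8.04 (3.43, adjusted p = 2.7e-05), in a DNA damage list with 10 rises and 10 falls of 33, against 23 and 2 with spike-in scaling.

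Meiotic genes had 18 falls and 5 rises of 49, against 9 and 24 with spike-in scaling, and 2 to 8 rises when 1 of the 4 arrays was left out. With quantile normalization again 27 meiotic genes fell and 3 rose, and the median was -0.65 in place of -0.36. IME1, for the activator of meiosis, fell from 11.48 and 11.47 to 7.93 and 8.34 (-3.34, adjusted p = 4.28e-05), and SPO20, for a protein of spore membrane formation, changed by -2.29. In the mating list 8 of 40 fell (4 with spike-in scaling), among them BAR1, for the protease that degrades alpha factor (-2.32), and 4 rose (27 with that scaling), among them the kinase genes STE20 (1.80) and KSS1 (1.31).

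The level reached at 18 h of hydrolysate was also tested against 18 h of the sugar feed, which asks whether the change from the common start differed between feeds. By limma 3502 genes differed, 61.9% of those tested, with 1763 higher (31.2%) and 1739 lower (30.8%) in hydrolysate and a median of 0.01. With spike-in scaling these were 1129 and 1841, with a median of -0.21. Ribosomal protein genes were higher in hydrolysate for 97 of 130 (median 0.87), and respiratory chain genes for 32 of 42 (median 0.72). In cell wall genes 40 of 59 were lower (median -1.05), and in sulfur genes 29 of 41 (median -1.07). PTR2, OLE1 and THI4, among the largest rises against the start, read 11.76 and 12.10, 14.42 and 14.38 and 14.24 and 14.26 after 18 h of sugar and did not pass the test of the difference (0.08, -0.06 and -0.10, adjusted p = 0.873, 0.688 and 0.572). OYE2 read 7.04 and 6.42 after sugar, below its start level, and was higher in hydrolysate by 5.71 (adjusted p = 2.31e-05).

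Further genes with the largest differences from sugar at 18 h, among those also called against the start, were ALD6, the mitochondrial carrier gene YMC2 and the uncharacterised YDR222W and YER158C on the higher side. ALD6 read 8.99 and 8.47 after sugar (4.29, adjusted p = 7.19e-05), TKL1 6.64 and 6.83 (4.03) and CYC1 10.63 and 9.86 (3.60), so that in these genes the sugar 18 h arrays lay below those of the start and of hydrolysate. HAP4 read 10.16 and 9.98 and was 2.86 higher in hydrolysate (adjusted p = 9.89e-05). CTR1 read 12.64 and 12.65 after sugar, above its start level, and differed in hydrolysate by -4.59 (adjusted p = 4.13e-05). In the authors' deposited table the same comparison gives log2 differences of 5.71 for OYE2 and -4.59 for CTR1, both called. BAG7 read 9.92 and 9.82 after sugar, above its level in hydrolysate (-3.88, adjusted p = 0.000112), and FMP48 read 13.61 and 13.74 (-3.87, adjusted p = 0.000379).

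Against 9 h of hydrolysate 1989 genes differed, 35.2% of those tested, with 1020 higher (18.0%) and 969 lower (17.1%) at 18 h and a median of 0.06. With spike-in scaling these were 228 and 1188, with a median of -0.23, and without replicate 1 or replicate 2 of hydrolysate 18 h the calls numbered 1122 and 1164. Glyoxylate and gluconeogenic genes were higher at 18 h than at 9 h for 15 of 28 (median 1.44) and autophagy genes for 22 of 36 (median 0.81). Cyclin and replication genes were lower for 42 of 67 (median -0.87), and sulfur genes for 25 of 41 (median -1.12). PCK1 read 9.05 and 8.41 at 9 h, far below both the start and 18 h, and differed between the times by 5.50 (adjusted p = 4.6e-06). The galactose genes ran the other way, with GAL7 at 13.93 and 13.97, GAL1 at 13.41 and 13.54 and GAL10 at 12.66 and 12.86 at 9 h and differences of -5.55, -5.50 and -5.95 (adjusted p = 5.9e-06, 4.6e-06 and 4.6e-06). ADH6 was likewise higher at 9 h of hydrolysate than at 18 h (14.16 and 14.29, difference -3.16, adjusted p = 8.68e-05).

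**Figure D4:**
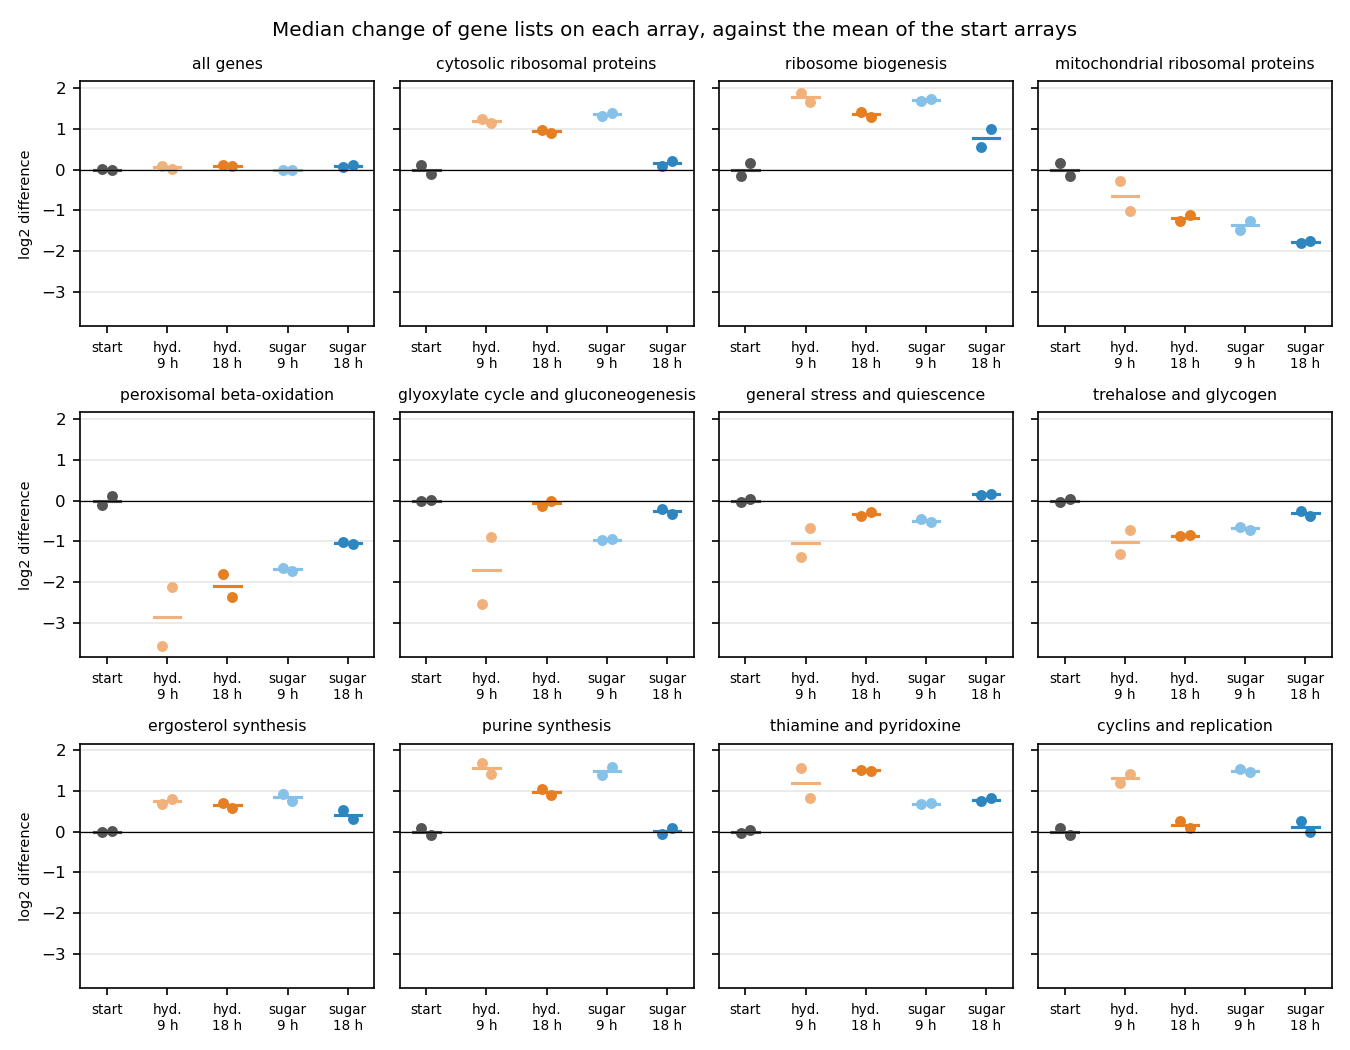
Median over the members of 12 gene sets of the log2 difference from the mean of the 2 start arrays (vertical axis), with 1 point for each array and a bar for each group mean, for the start, hydrolysate (hyd.) at 9 h and 18 h and sugar at 9 h and 18 h. At 18 h of hydrolysate the cytosolic ribosomal protein and ribosome biogenesis lists stay near 1 or above. The mitochondrial ribosomal list is at -1.27 and -1.13 and the peroxisomal list near -2. The glyoxylate and gluconeogenesis list, low at 9 h with arrays far apart, is back near 0.

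In HTB2, the wall genes SCW10 and CIS3 and the secreted protein gene PRY2, the 9 h level was above the start and the 18 h level below it. HTB2 read 13.03 and 13.04 at 9 h (difference -3.78, adjusted p = 8.68e-05) and SCW10 11.79 and 11.94 (difference -4.69, adjusted p = 5.72e-05). PUT1, for proline oxidase, read 10.81 and 11.05 at the start, 8.93 and 9.65 at 9 h and 13.18 and 12.50 at 18 h, with a difference between 9 h and 18 h (3.55, adjusted p = 0.000103). The drug exporter genes PDR12 and FLR1, together with OYE3, ERG3 and HAP4, did not pass the test between 9 h and 18 h, with differences of -0.40, -0.23, -0.22, 0.36 and 0.48 (adjusted p = 0.392, 0.5, 0.518, 0.322 and 0.167). OYE2 differed by -1.12 (adjusted p = 0.0349), a call lost without replicate 1 of hydrolysate 9 h (-0.90, adjusted p = 0.151) or replicate 2 of hydrolysate 18 h (-0.67, adjusted p = 0.202). The comparisons with sugar and with 9 h both share the hydrolysate 18 h arrays with that against the start.

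**Figure D5:**
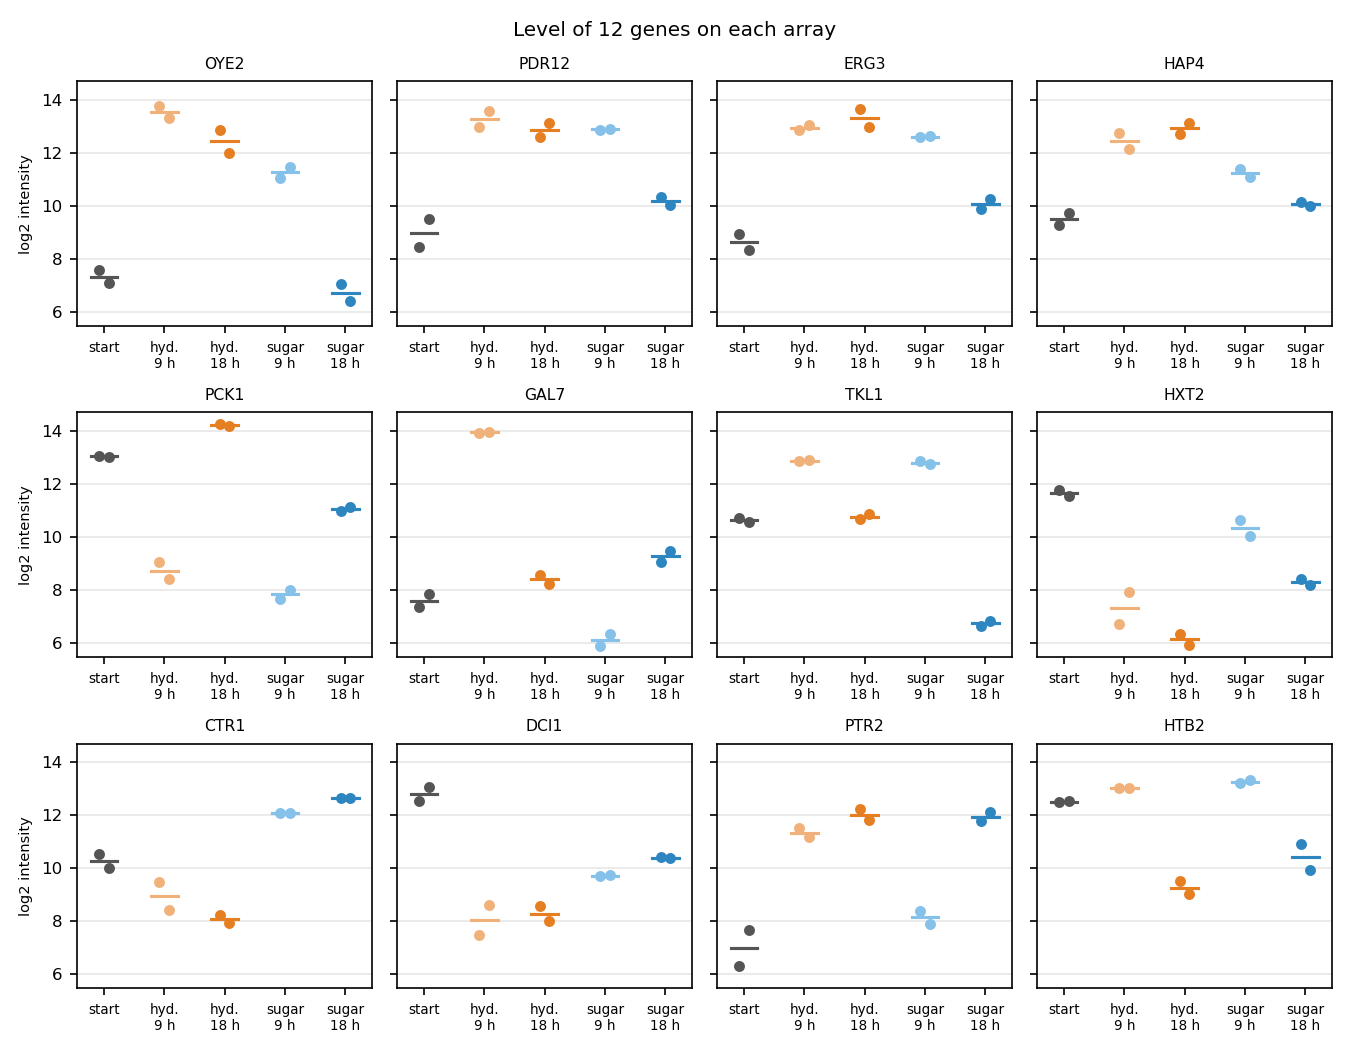
Log2 intensity (vertical axis) of 12 genes on each of the 10 arrays, as points, with a bar for each group mean, for the start, hydrolysate (hyd.) at 9 h and 18 h and sugar at 9 h and 18 h. OYE2 and HAP4 are higher after 18 h of hydrolysate than after 18 h of sugar, PCK1 and GAL7 differ sharply between 9 h and 18 h of hydrolysate, and HXT2 is at its lowest mean level at 18 h of hydrolysate.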

How the data were processed

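Total RNA was extracted with Trizol, labelled by 3′-directed one-cycle amplification and hybridized to Affymetrix yeast arrays, per the labels' protocols. The deposited values are log2 intensities on 10 arrays, made with RMA in affy 1.74.0 under R 4.2.1, per the submitters' processing notes; no scanner files were used here. A second deposited table, made by the authors with limma 3.52.4 per the same notes, gives log2 differences, scores (statistics and calls) and p-values. It compares hydrolysate with sugar at a later time it names 17 h, where the labels say 18 h. Its differences matched those computed here for all 5654 genes to within 8.7e-14. It nevertheless calls 216 genes higher and 89 lower where the threshold used here calls 1763 and 1739. Its column names mark the calls, from limma's decideTests function, and the adjusted p-values as global. The authors' threshold for calls is not stated in the sources used. How far the global setting accounts for the gap in counts was not tested. The 10 per-array columns of that table were not used.

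Of 10928 probe sets 3 had no annotation, and 5703 of the 5811 for S. cerevisiae had 1 reading frame, giving 5654 genes after keeping the brightest probe set. Coordinates of genes were read from the authors' deposited table; the sources used here name no genome build for them. Probe sets of 112 genes are shared with other genes. Background was the 95th percentile of Schizosaccharomyces pombe probe sets on each array. Groups were compared with limma 3.58.1 (R 4.3.3) over all 10 arrays, 5 groups of 2 biological replicates, without a block, with Benjamini-Hochberg adjustment over all genes and a threshold of 0.05. All adjusted p-values are limma's. The number of arrays limits the precision. The fit was tested on simulated data. Same-numbered replicates deviated with correlations of -0.20 to 0.13, so the numbers were not used to pair samples. The sample titles do not say whether different times were sampled from the same cultures, and these correlations cannot decide it.

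Named genes were the 15 largest rises and falls against the start among called genes whose arrays did not overlap and whose brighter group was above background, up to 4 called members of each gene list in each direction, the 5 largest in each direction for the other comparisons among genes called both there and against the start, and 68 genes of fixed interest. A result that is withheld is not reported here. The members and lists were chosen with earlier results of these data known. Alternatives were a trended robust prior, a filter on dim genes, only the arrays compared, fixed and random blocks, renewed quantile normalization, median centring, spike-in scaling, averaged or all probe sets, a fold minimum of 2, removal of the trend on gene length, and leaving out each array.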

Additional observations from a re-analysis of the deposited data

Results flagged for a closer look

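The change from the start was tested for a difference between feeds at 18 h and between times of the hydrolysate feed, and 3502 and 1989 genes passed. The genes below had the 5 largest differences in each direction among genes also called against the start; larger differences of genes without that call are left out. Values are log2 differences from limma. Higher after hydrolysate than after sugar at 18 h were OYE2 (5.71), the uncharacterised YDR222W (5.12) and YER158C (4.16), ALD6 (4.29) and YMC2, for a mitochondrial carrier (3.90). Lower after hydrolysate were CTR1 (-4.59), the spore wall gene SPS22 (-4.00), BAG7 (-3.88), FMP48 (-3.87) and RGS2, for a regulator of cAMP signalling (-3.65).

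Higher at 18 h than at 9 h of hydrolysate were PCK1 (5.50), SHH3 (3.67), PUT1 (3.55), YJL045W, for a minor form of a succinate dehydrogenase subunit (3.22), and RSB1, for a putative sphingoid base translocator (3.12). Without replicate 1 of hydrolysate 9 h SHH3 was at 2.19 and YJL045W at 2.00. Lower at 18 h were GAL7 (-5.55), SCW10 (-4.69), PRY2 (-4.30), CIS3 (-4.24) and HTB2 (-3.78). Groups of 2 arrays were too small to name single outlying samples. The hydrolysate 9 h arrays correlated at r = 0.971 across genes, with 201 genes differing 2-fold between them. Replicate 2 of hydrolysate 9 h correlated with the sugar 9 h arrays at r = 0.971 and 0.975, with 167 and 139 such genes. It thus stood at least as close to the sugar 9 h arrays as to its own replicate.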

How the results depend on the processing

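The count of calls against the start was 2388 to 3334 when 1 array was left out, that against sugar 2654 to 3675, and that against 9 h of hydrolysate 1122 to 2245. Requiring a 2-fold change left 1454, 1769 and 665 calls. With only the 4 arrays compared the calls against 9 h numbered 1214. The other counts stayed within 1.5 times. With the replicate number as a block, although it is not known whether the numbers pair the samples, the calls were 2983, 3399 and 1807. Against the start the share of higher genes among calls fell from 59.9% to 51.09% with quantile normalization again and to 52.2% with median centring. It was 50.3% with the trend on gene length removed. Spike-in scaling moved that share from 59.9% to 95.14% against the start, from 50.34% to 38.01% against sugar and from 51.28% to 16.1% against 9 h. Under it differences below 0 against the start became positive for ACT1 (0.30), ADH1 (0.62), ARI1 (0.067), CLN3 (0.86), CYC7 (0.82), FDC1 (0.25), GAL1 (0.76), GCN4 (0.73), GRE2 (0.52), TSL1 (0.039) and ZWF1 (0.026), and also for ACS1, ADH2, GAL10, PHO5, PHO84 and XYL2 (0.11 to 0.58), by the construction of the shift. Of 174 named genes called against the start 16 lost the call without some 1 array. The small number of arrays and the dim signal of genes near background limit what could be called.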
